A study of Mus musculus with 30 samples.

Results

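The acute phase proteins described here are 10 secreted proteins of the liver whose genes were taken by symbol from the deposited count tables. They are the serum amyloid A genes Saa1, Saa2, Saa3 and Saa4, the orosomucoid genes Orm1 and Orm2, the lipocalin gene Lcn2, the haptoglobin gene Hp, and the pentraxin genes Crp and Apcs. All 10 of them were found among the 14173 genes of the tables, and all 10 passed the filter on low counts in each comparison. RNA was measured in the livers of 30 male C57BL6/J mice, 6 per diet, at 6 months of age and after a 4 h fast, with 1 library of 3′ end reads per mouse. Mice stayed on their diet for 12 weeks from 12 weeks of age, after 2 weeks on a 20% casein or a 20% soy diet. Cas-20% was the casein control (20% casein, with 0.57 g methionine and 0.41 g cysteine per 100 g of diet), and Cas-5% the restricted casein diet (5% casein, 0.15 g methionine and 0.10 g cysteine). Soy-20% held 20% soy protein with 0.22 g of each, Soy-20% + SAA the same protein with methionine and cysteine added to 0.58 g and 0.41 g, and Soy-10%, given as 11.5% soy in the labels, 0.13 g of each. The casein and soy groups therefore differ in their first diet and in protein source as well as in restriction. Libraries held between 7694015 and 14565542 counts (median 10803734), and levels are given below as normalized counts, which are counts divided by the size factor of their library. In 4 of the 6 Soy-20% + SAA libraries, livers 3 to 6, counts rose with the GC content of the 3′ ends, with slopes of 0.057, 0.179, 0.172 and 0.198 log2 units per 10% GC against -0.058 to 0.023 in the other 26 libraries, so tests between diets, correlations over all livers and the spread within diets were also computed without them.

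Acute phase proteins are the plasma proteins that the liver makes in larger amounts during infection or injury. Macrophage cytokines such as interleukin 6 and interleukin 1 reach the hepatocyte, where STAT3, NF-kappaB and C/EBP factors switch on the genes of this response. Serum amyloid A proteins travel on high density lipoprotein, orosomucoids bind lipids and drugs in plasma, haptoglobin captures free hemoglobin, and lipocalin 2 withholds iron from bacteria by binding their siderophores. In mice, serum amyloid P (Apcs) is the pentraxin known to respond strongly in inflammation, whereas C-reactive protein (Crp) changes little. Saa4 is expressed in the resting liver, and Saa3 is known mainly from macrophages and adipose tissue.

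On GRCm38, Saa3 (chr7:46711998-46715700), Saa4 (chr7:46727998-46732603), Saa1 (chr7:46740497-46742980) and Saa2 (chr7:46751790-46754313) lie side by side, and Orm1 (chr4:63344560-63348163) and Orm2 (chr4:63362449-63365878) flank a further copy, Orm3. Lcn2 (chr2:32384633-32388252), Hp (chr8:109575128-109579172), Crp (chr1:172698055-172833031) and Apcs (chr1:172893961-172895041) are single entries of the tables, and all 10 genes are annotated as protein coding. The Orm copies, and Saa1 and Saa2, are so alike that a 3′ end read can fall on sequence which they share. Over the last 300 bases of their GENCODE M21 transcripts, Orm1 and Orm2 were identical at 97.7% of aligned positions, with an identical run of 141 bases, and Saa1 and Saa2 at 92.4%, with a run of 73 bases. The last 120 coding bases are shown for these genes because they lie where such reads begin to differ; capitals mark bases that differ from the first sequence of each family. The stretches lie at chr4:63346347-63348050 (Orm1), chr4:63364227-63365765 (Orm2) and chr4:63357854-63359397 (Orm3), each stretch spanning an intron on the plus strand, and at chr7:46740704-46740823 (Saa1, minus strand) and chr7:46753990-46754109 (Saa2, plus strand).
Orm1: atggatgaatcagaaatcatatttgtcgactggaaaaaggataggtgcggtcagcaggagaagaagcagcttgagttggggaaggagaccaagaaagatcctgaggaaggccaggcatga
Orm2: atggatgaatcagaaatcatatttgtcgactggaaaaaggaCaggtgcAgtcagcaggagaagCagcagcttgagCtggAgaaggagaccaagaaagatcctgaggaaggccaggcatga
Orm3: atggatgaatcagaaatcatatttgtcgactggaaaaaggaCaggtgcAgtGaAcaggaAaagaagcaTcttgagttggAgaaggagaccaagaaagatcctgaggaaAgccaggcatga
Saa1: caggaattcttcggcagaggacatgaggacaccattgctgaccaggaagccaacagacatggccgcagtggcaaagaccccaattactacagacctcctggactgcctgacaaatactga
Saa2: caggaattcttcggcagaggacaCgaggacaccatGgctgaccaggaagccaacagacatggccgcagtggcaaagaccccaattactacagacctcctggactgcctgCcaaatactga
Orm2 differed from Orm1 at 5 of the 120 bases, Orm3 at 8, and Saa2 from Saa1 at 3. How reads that match several copies were counted is not given in the sources used here, so the split of counts within each family is uncertain. The summed counts of Orm1, Orm2 and Orm3 do not depend on that split, and were 6372 ± 708 (SD, n = 6) in Cas-20% and 612 ± 380 in Cas-5% livers.

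The first question was whether restriction of casein altered these transcripts. Restriction lowered 6 of the 10 and raised 1 of them, so that 7 of 10 passed the test at an adjusted p of 0.05 or less, against 24.9% of all 12076 genes tested (13.3% lower and 11.6% higher). The median log2 fold change of the 10 was -0.57, beside 0.02 over all genes tested. Separation without overlap of any liver was found for 5 of the 10, against 12.9% of all genes.

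The largest change was in Orm1, the main orosomucoid of mouse liver. Its normalized counts were 5551, 6201 and 7306 (lowest, median and highest) in Cas-20% livers and 320, 439 and 1337 in Cas-5% livers. Every Cas-5% liver lay far below every Cas-20% liver, and liver 5 of Cas-5% stood above the other five. Orm1 was 10.4-fold lower, a log2 fold change of -3.38 ± 0.28 (SE; 95% interval -3.97 to -2.79; adjusted p = 2.6e-07 by edgeR's quasi-likelihood F test). Its minor relative Orm2 ran from 9.01 through 24.7 to 39.8 in Cas-20% and from 3.84 through 9.26 to 14.5 in Cas-5% livers. The diets overlapped for Orm2, with 3 of 6 Cas-5% livers below every control, and its log2 fold change was -1.32 ± 0.36 (adjusted p = 0.012).

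The inducible serum amyloid A genes fell together. Saa1 counts were 322, 587 and 1101 in Cas-20% livers and 176, 230 and 318 in Cas-5% livers, a log2 fold change of -1.42 ± 0.26 (adjusted p = 0.00078). Saa2 counts were 110, 268 and 594 against 51.4, 82.8 and 102, a log2 fold change of -1.90 ± 0.35 (adjusted p = 0.00077). Neither gene overlapped between the diets, although the highest Cas-5% liver came within a few counts of the lowest control for both. Their summed counts were 934 ± 487 in Cas-20% and 316 ± 81.3 in Cas-5% livers. Saa4 fell by 0.34 ± 0.07 on the log2 scale, from 1701 ± 111 to 1334 ± 106 normalized counts, again without overlap (adjusted p = 0.0014). Saa3 did not pass the test, with a log2 fold change of 0.44 ± 0.22 in the opposite direction (adjusted p = 0.17).

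The pentraxins moved in opposite directions. Crp fell by 0.18 ± 0.06 on the log2 scale, from 3672 ± 192 to 3210 ± 147 normalized counts (adjusted p = 0.035), while Apcs rose from 880 ± 138 to 1186 ± 204, a log2 fold change of 0.44 ± 0.12 (adjusted p = 0.0097). Crp values did not overlap between diets but lay close together, and 3 of 6 Cas-5% livers exceeded every Cas-20% liver in Apcs. Haptoglobin, with 11776 ± 1623 and 10470 ± 1006 counts, and Lcn2, with 43.1 ± 29.2 and 24.1 ± 7.99, did not pass the test (log2 fold changes -0.16 ± 0.09, adjusted p = 0.25, and -0.80 ± 0.37, adjusted p = 0.13). Lcn2 ranged from -0.99 to -0.40 when single livers were left out, and passed only without Cas-20% liver 1 (adjusted p = 0.038). The calls of Crp and Apcs were the least secure. Crp was lost when any of 5 livers was left out (adjusted p up to 0.074), and Apcs when all 30 livers shared an estimate of spread (adjusted p = 0.056).

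**Figure D1:**
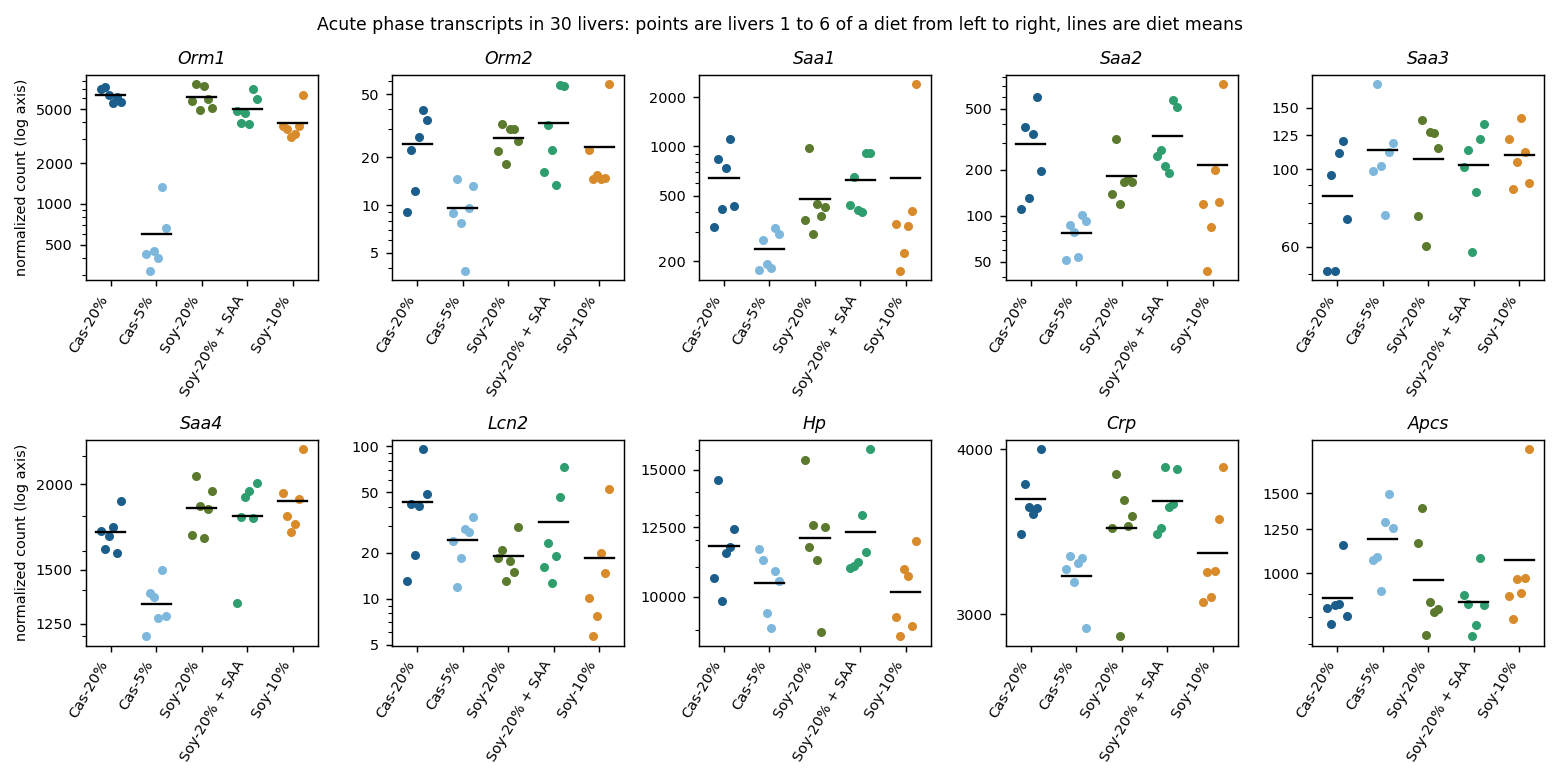
Normalized counts (log axis) of the 10 acute phase transcripts in each liver, by diet, with livers 1 to 6 of a diet drawn from left to right and a line at the diet mean. Orm1 fell to between 320 and 1337 counts in Cas-5%, below all livers of the other diets, and Soy-10% liver 6 stands above the rest of its diet in Saa1, Saa2, Orm1, Orm2 and Apcs.

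Soy restriction was compared with both soy controls, which share the Soy-10% livers and so are not independent of each other. None of the 10 transcripts passed the test against Soy-20% + SAA, where 17.0% of 11983 genes did, and 1 of the 10, Hp, reached an unadjusted p under 0.05, as 33.9% of all genes did. None passed against Soy-20%, where 0.866% of 11897 genes did, and 2 of the 10, Orm1 and Hp, reached an unadjusted p under 0.05, as 12.3% of all genes did. DESeq2 called 0 of the 10 and 19.9% of all genes against Soy-20% + SAA, and 1 of the 10 and 1.92% of all genes against Soy-20%. The diets overlapped for each of the 10 in both comparisons, where values did not overlap for 6.22% and 1.34% of all genes. The median log2 fold change of the 10 was -0.21 against Soy-20% + SAA and -0.02 against Soy-20%, beside -0.01 and 0.00 over all genes tested.

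Orm1 had its lowest soy mean in the restricted diet. Its counts were 3133, 3653 and 6379 in Soy-10%, 3885, 4773 and 6989 in Soy-20% + SAA, and 4909, 5841 and 7670 in Soy-20% livers. Of the 6 Soy-10% livers, 5 lay below every liver of either control, and liver 6 lay among the controls. The log2 fold change was -0.34 ± 0.18 (95% interval -0.72 to 0.04; adjusted p = 0.19) against Soy-20% + SAA and -0.62 ± 0.16 (-0.96 to -0.29; adjusted p = 0.087) against Soy-20%. Without liver 6, Orm1 passed the test against both controls, with log2 fold changes of -0.53 (adjusted p = 0.029) and -0.81 (adjusted p = 0.0023). By diet means the order of Orm1 levels was Cas-20% (6324 ± 717), Soy-20% (6126 ± 1172), Soy-20% + SAA (5043 ± 1204), Soy-10% (3982 ± 1201) and Cas-5% (599 ± 379). Only the last step, from Soy-10% to Cas-5%, exceeded the spread of the livers in the tests made between neighbours; Cas-20% and Soy-20% were not compared by a test, and their values overlapped.

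The same Soy-10% liver decided the Saa1 and Saa2 values. Saa1 counts in Soy-10% were 174, 223, 327, 334 and 404 in livers 2, 3, 4, 1 and 5, and 2404 in liver 6, where Soy-20% + SAA livers ran from 398 through 546 to 915. The diet means of 644 and 620 were close only because of that liver: 4 of the 6 Soy-10% livers lay below every Soy-20% + SAA liver and 1 above. The log2 fold change of Saa1 was 0.05 ± 0.55 with liver 6, with a 95% interval of -1.12 to 1.22, and -1.09 ± 0.27 without it (adjusted p = 0.022). Saa2 gave -0.63 ± 0.53 and -1.57 ± 0.37 (adjusted p = 0.018) in the same way. Without liver 6, 3 of the 10 transcripts (Orm1, Saa1 and Saa2) passed the test against Soy-20% + SAA, where 12.3% of all genes did, and 1 (Orm1) against Soy-20%, where 0.709% did. Without Soy-20% + SAA livers 3 to 6, and with all Soy-10% livers, none of the 10 and 2.54% of all genes passed, and the log2 fold changes were nearer 0 for Orm1 (-0.15 ± 0.21), Saa2 (-0.26 ± 0.71) and Hp (-0.12 ± 0.11), while Saa1 was at 0.24. The GC covariate gave -0.17, -0.13 and -0.07 for Orm1, Saa2 and Hp, and Saa1 was at most 0.34 in the other settings tried. Against Soy-20%, Saa1 moved from 0.42 ± 0.54 to -0.73 ± 0.28 without liver 6 (adjusted p = 0.30). Haptoglobin was 0.28 ± 0.11 log2 units lower than in Soy-20% + SAA (adjusted p = 0.082) and 0.25 ± 0.11 lower than in Soy-20% (adjusted p = 0.34).

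**Figure D2:**
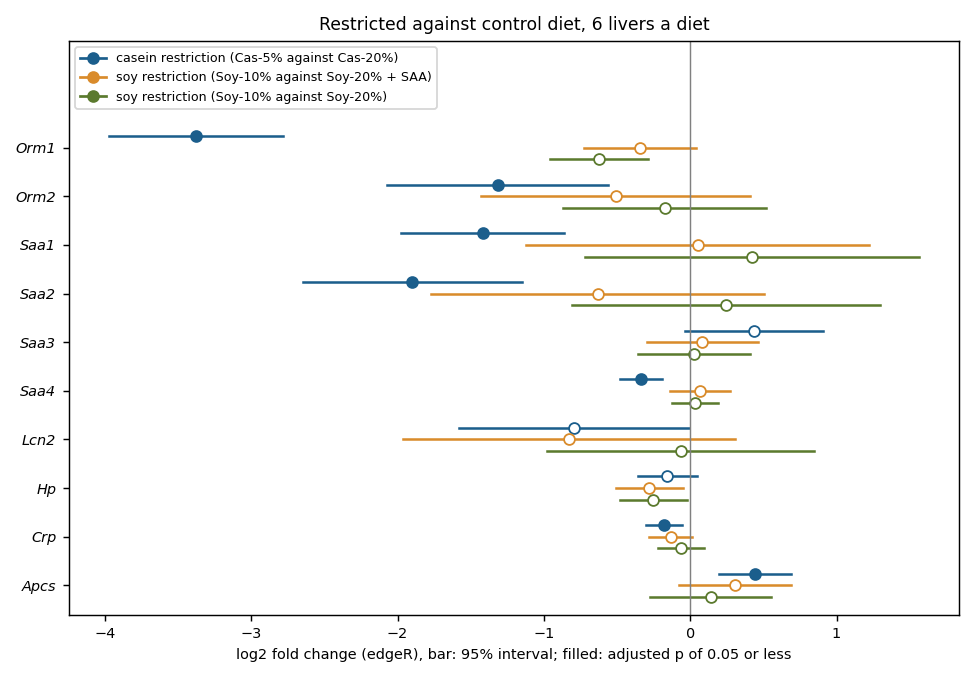
Log2 fold changes with 95% intervals of the 10 transcripts for casein restriction and for soy restriction against each soy control, 6 livers a diet, with filled points at an adjusted p of 0.05 or less. The 7 filled points belong to casein restriction, and the intervals of Saa1 and Saa2 under soy restriction span more than 2 log2 units.

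The casein effect minus the soy effect (Soy-20% + SAA control) was tested in 24 livers. Casein was cut from 20% to 5% and soy from 20% to 11.5%. Depth of protein restriction and protein source therefore cannot be told apart in this contrast. Of the 10 transcripts 2 passed, both with the lower casein effect, against 8.69% of 12532 genes in either direction and 5.49% in that one. The casein effect on Orm1 was lower by 3.04 ± 0.35 log2 units (95% interval -3.76 to -2.32; adjusted p = 2.3e-05), and it stayed between -3.45 and -2.86 when any liver was left out. Without Soy-20% + SAA livers 3 to 6 it was -3.23 ± 0.46 (adjusted p = 0.00089). For Saa4 the difference was -0.41 ± 0.12 (adjusted p = 0.032), a call lost without any of 5 livers (adjusted p up to 0.060). For Saa1 and Saa2 the differences of -1.48 ± 0.67 (adjusted p = 0.16) and -1.28 ± 0.70 (adjusted p = 0.25) did not pass, and were -0.33 ± 0.41 and -0.34 ± 0.55 without Soy-10% liver 6. Over the other settings, among them Soy-20% as the soy control, they ran from -1.85 to -1.17 and from -2.16 to -1.07, and passed in none. Of the other 6 transcripts, none reached an unadjusted p under 0.05 in this test, where 26.0% of all genes did.

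The restricted diets themselves, Cas-5% and Soy-10%, were compared as an addition to the planned tests. They differ in protein content, 5% against 11.5%, as well as in protein source. Of the 10 transcripts 3 passed, all lower in Cas-5%, against 6.14% of 12041 genes that were lower. Orm1 was 6.51-fold lower (log2 fold change -2.70 ± 0.28; adjusted p = 1.3e-05) and Saa4 lower by 0.48 ± 0.07 log2 units (adjusted p = 0.00036). Orm2, at 9.64 ± 3.85 against 23.3 ± 17.2 counts, passed narrowly (-1.27 ± 0.39, adjusted p = 0.045) and lost the call when any of 6 livers was left out, with a robust dispersion prior (adjusted p = 0.059) and in a fit of all 30 livers (adjusted p = 0.075). Leaving out single livers gave Orm2 log2 fold changes from -1.40 to -0.75 (adjusted p up to 0.097). No Cas-5% liver reached the lowest Soy-10% liver in any of these 3 genes, a separation found for 5.86% of all genes in either direction.

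Adding sulfur amino acids to the 20% soy diet, and exchanging casein for supplemented soy at 20% protein, were tested as well. None of the 10 transcripts passed either test, where 0.00838% of 11932 and 2.43% of 11988 genes passed. In each, 1 of the 10 had an unadjusted p under 0.05, beside 24.2% and 26.2% of all genes, and DESeq2 called 1 of the 10 after supplementation and 0 between the protein sources, against 7.42% and 9.63% of all genes. The largest change after supplementation was in Saa2, which was 333 ± 164 in Soy-20% + SAA and 181 ± 70.5 in Soy-20% livers (log2 fold change 0.87 ± 0.30, unadjusted p = 0.010 and adjusted p = 0.10 by edgeR; DESeq2 gave an adjusted p of 0.037). It was 0.50 ± 0.27 without Soy-20% + SAA livers 3 to 6 and 0.39 ± 0.33 with the GC covariate (adjusted p = 0.78 for each). Between Soy-20% + SAA and Cas-20%, Orm1 differed by -0.33 ± 0.14 log2 units (adjusted p = 0.14). Over the other settings this difference lay between -0.52 and -0.32, and it passed in none. Across all 5 diets at once, 4 of the 10 differed, namely Saa2, Saa4, Orm1 and Orm2, against 43.4% of 12561 genes. With the GC slope of each library as a covariate, Saa2 (adjusted p = 0.051) and Orm2 (adjusted p = 0.074) no longer passed. Their largest differences between diets were then 1.84 and 1.42 log2 units, beside 2.09 and 1.78 in the main fit. Both passed without Soy-20% + SAA livers 3 to 6 (adjusted p = 0.042 and 0.039). Without Soy-10% liver 6, 8 of the 10 passed, all but Saa3 and Hp, against 41.6% of all genes in that fit.

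The 10 transcripts varied between mice of one diet to very different degrees. The SD of log2 CPM within diets was 0.84 for Saa2, 0.79 for Lcn2, 0.79 for Saa1 and 0.66 for Orm2, above that of 97.9% or more of the 12561 genes tested. It was 0.43 for Saa3 and 0.42 for Orm1, and 0.30 for Apcs. Hp, Saa4 and Crp, at 0.20, 0.14 and 0.10, lay below the median of 0.23 over all genes. Set against edgeR's dispersion trend for genes of like abundance, Hp lay above 69.2% of genes, Saa4 above 41.4% and Crp above 17.5%. By that measure Saa1, Saa2, Lcn2 and Orm2 lay above 97.3% or more, and Apcs above 91.3%. Among mice of one diet, the highest liver exceeded the lowest by up to 13.9-fold for Saa1 and 16.7-fold for Saa2 and 9.25-fold for Lcn2, all in Soy-10% and all set by liver 6, but by at most 1.33-fold for Crp. Without that liver the Soy-10% ratios were 2.33, 4.57 and 3.51, and the widest were those of Cas-20%, at 3.42, 5.40 and 7.34, while the SD within diets of Saa1 was 0.56. The narrowest diet for Saa1 and Saa2 was Cas-5%, with ratios of 1.81 and 1.98. For Orm1, Cas-5% was instead the widest diet, with a ratio of 4.17 and an SD of 0.74, beside 1.32 and 0.16 in Cas-20%. Diet accounted for 92.4% of the variance of Orm1 and 66.0% of that of Saa4, and for 31.3% of that of Saa1 (53.5% without Soy-10% liver 6), beside a median of 31.8% over all genes tested (32.3% without that liver).

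The variable transcripts rose and fell in the same livers. With the mean of each diet removed, log2 CPM of Saa1 correlated over 30 livers with that of Saa2 at a Pearson r of 0.95 (Spearman rho 0.94), and 8 of the 9 other transcripts passed a two-sided permutation test of r within diets after adjustment over the 9 relations, and 7 of the 9 that of rho. Of the other 12560 genes tested, 3.18% had an r with Saa1 of at least the size of the smallest that passed, that of Saa4, and 0.637% had a positive r as high as that of Orm1. Apcs followed at an r of 0.79 (rho 0.57, adjusted p = 0.00027 for r and 0.0021 for rho), and Orm2 and Lcn2 at 0.78 each (rho 0.79 and 0.72, adjusted p = 9e-05 for each r). For Crp, Orm1, Saa3 and Saa4, r was 0.56, 0.54, 0.45 and 0.43 (rho 0.44, 0.51, 0.72 and 0.31; adjusted p of r between 0.0009 and 0.030, and of rho 0.13 for Saa4), and haptoglobin did not pass (r of 0.35, rho 0.26, adjusted p = 0.058). Without the livers farthest from the Saa1 median, Soy-10% liver 6 and Soy-20% liver 2, r was 0.93 for Saa2, 0.76 for Lcn2, 0.74 for Orm2, 0.57 for Apcs and 0.71 for Saa3. It dropped to 0.30 for Crp and 0.18 for Saa4, whose relations rest on those livers. Without Soy-20% + SAA livers 3 to 6, r was 0.94 for Saa2, 0.79 for Apcs, 0.77 for Orm2 and Lcn2 and 0.40 for Saa3. Saa4 then passed by rho as well (0.41, adjusted p = 0.045), but its r was 0.22 when the farthest livers were left out too. Haptoglobin did not pass there either (adjusted p of r = 0.10). Within single diets of 6 livers, r of Saa1 with Saa2 was between 0.91 and 0.99, but no relation passed an exact permutation test after adjustment over 45 relations (smallest adjusted p = 0.062). It ran from 0.68 (Cas-5%) to 0.97 (Soy-20% + SAA) for Orm2 and from 0.55 (Cas-20%) to 0.97 (Soy-10%) for Apcs. For Lcn2 it was 0.07 in Cas-5% and 0.95 in Soy-10%, and for Saa3 -0.23 in Soy-10% and 0.94 in Cas-20%. As Saa1 and Saa2 may share reads, their close relation is not that of separate measurements.

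**Figure D3:**
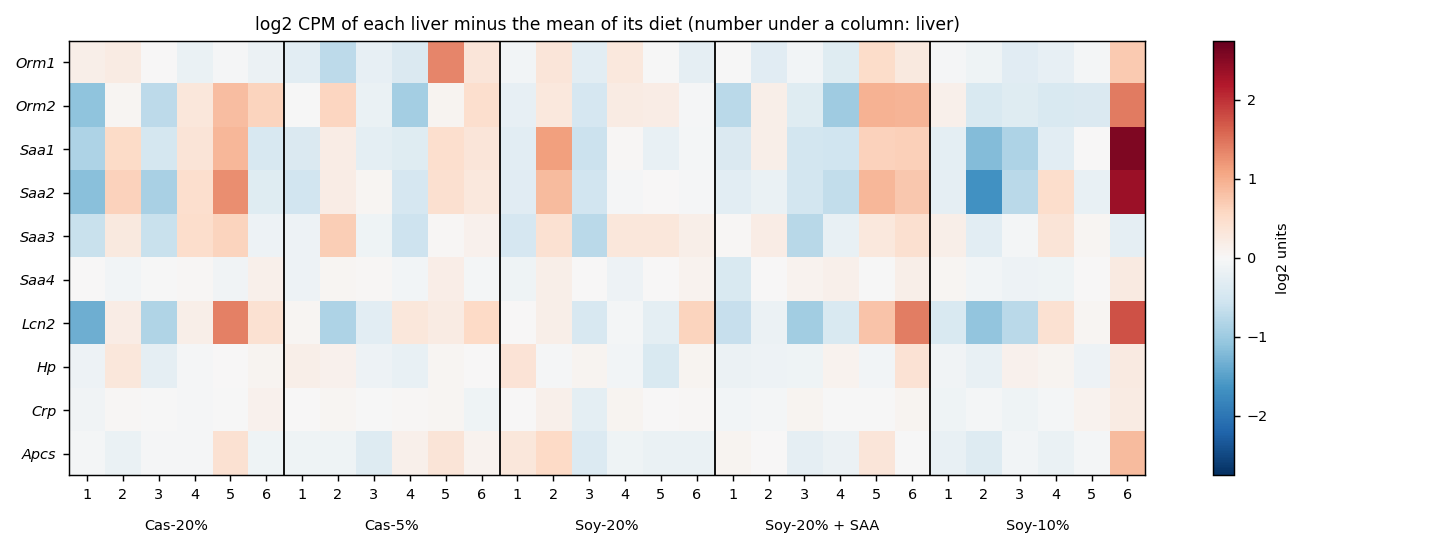
Log2 CPM of each liver minus the mean of its diet for the 10 transcripts (rows) in 30 livers (columns, grouped by diet), with red for livers above and blue for livers below their diet mean. Soy-10% liver 6, Soy-20% + SAA livers 5 and 6 and Cas-20% liver 5 are red in Saa1, Saa2, Orm2 and Lcn2 together, and Crp and Saa4 stay pale.

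**Figure D4:**
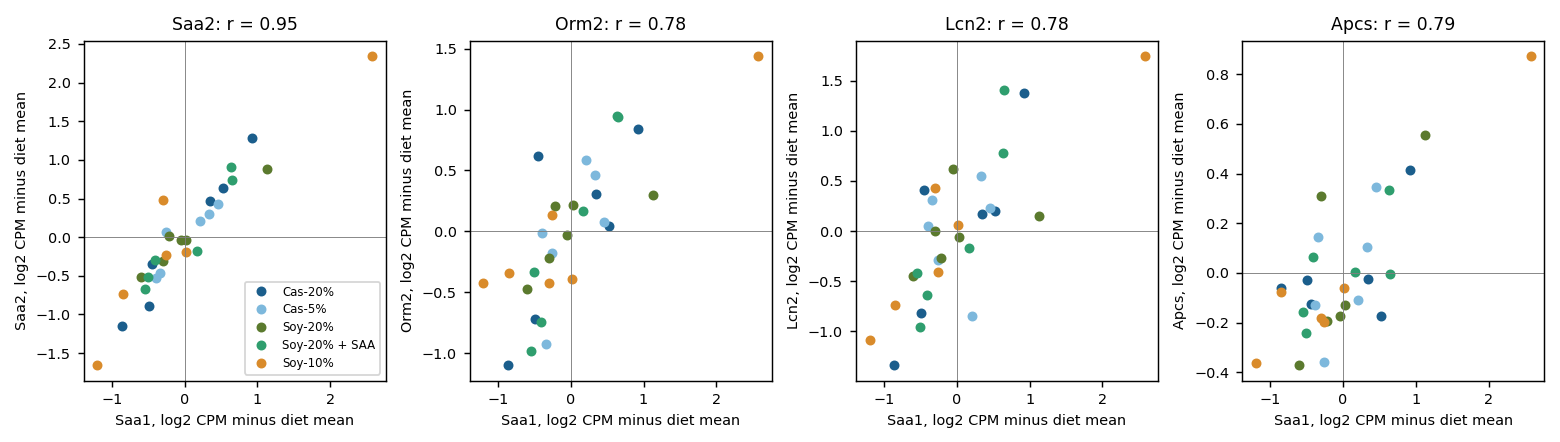
Saa1 (x axis) against Saa2, Orm2, Lcn2 and Apcs (y axes) as log2 CPM minus the diet mean, 1 point per liver coloured by diet, with Pearson r over 30 livers above each plot. The point at the far right of each plot is Soy-10% liver 6.

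Promoter sequences are shown for Saa1 and for Orm2, Saa3 and Apcs, which varied with it, as the 250 bases before RefSeq's start on GRCm38.p6, 5′ to 3′. Which transcripts followed Saa1 most closely depended on the measure: Apcs came above Saa3 by r over 30 livers, but Saa3 above Apcs by rho, and without Soy-10% liver 6 also by r (0.78 against 0.62). RefSeq's starts differ from the gene spans given above for some genes: 24 bases of the Saa3 window lie inside its span, and the windows of Saa2 and Lcn2 are not shown because 43 and all 250 of their bases do. Capitals mark matches on either strand to the C/EBP motif TTNNGNAA in the first 3 windows and to the STAT motif TTCNNNGAA in that of Apcs. The windows are chr7:46742981-46743230 (Saa1, minus strand), chr4:63362199-63362448 (Orm2, plus strand), chr7:46715677-46715926 (Saa3, minus strand) and chr1:172895055-172895304 (Apcs, minus strand).
Saa1: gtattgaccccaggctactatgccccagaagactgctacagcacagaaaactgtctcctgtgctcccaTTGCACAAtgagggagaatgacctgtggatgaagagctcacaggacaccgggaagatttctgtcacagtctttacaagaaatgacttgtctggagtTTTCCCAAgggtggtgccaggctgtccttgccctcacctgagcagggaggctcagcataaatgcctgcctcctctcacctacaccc
Orm2: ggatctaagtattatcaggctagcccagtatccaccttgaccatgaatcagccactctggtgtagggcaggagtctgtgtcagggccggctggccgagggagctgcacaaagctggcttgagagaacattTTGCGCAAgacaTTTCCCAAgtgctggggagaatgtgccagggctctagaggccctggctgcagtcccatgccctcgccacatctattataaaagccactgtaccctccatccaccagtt
Saa3: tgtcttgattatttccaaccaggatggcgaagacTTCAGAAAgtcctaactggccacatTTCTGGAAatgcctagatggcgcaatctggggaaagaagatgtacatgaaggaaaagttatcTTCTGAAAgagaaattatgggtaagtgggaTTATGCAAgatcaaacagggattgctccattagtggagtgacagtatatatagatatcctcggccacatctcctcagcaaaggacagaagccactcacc
Apcs: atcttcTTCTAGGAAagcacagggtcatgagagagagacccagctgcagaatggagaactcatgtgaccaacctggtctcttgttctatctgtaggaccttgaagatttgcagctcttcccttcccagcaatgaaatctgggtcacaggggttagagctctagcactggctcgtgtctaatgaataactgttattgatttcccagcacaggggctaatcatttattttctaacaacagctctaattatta
The C/EBP motif was found in the windows of Saa1, Orm2 and Saa3 and not in that of Apcs, and in 36.8% of all 32851 promoter windows of that length. Windows not shown that held it were those of Saa2, Lcn2 and Orm3, and of Saa4 and Crp, whose relation with Saa1 rests on a pair of livers. No promoter window was available for Orm1 or Hp, so these genes were not searched for any motif. The STAT motif, found in 7.02% of all windows, was in that of Apcs alone among the 4 shown, and none of the 4 held the NF-kappaB consensus, found in 3.90%. These letter matches describe the sequence and do not show that a factor binds there.

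Among the nearest expression patterns to Saa1 of the 12561 genes tested, outside the gene lists used here, were those of Cd300lf and Fpr1 (r of 0.71 each), Clec4a1 (0.66) and Icam1 (0.66), over 30 livers with the mean of each diet removed. Cd300lf, Fpr1 and Clec4a1 encode receptors of myeloid cells, and Icam1 an adhesion molecule. Their mean normalized counts were low, between 14.5 and 109 in each diet.

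Among 23 other positive acute phase genes, casein restriction raised 7 and lowered 4, against 11.6% and 13.3% of all genes, and the median log2 fold change was 0.03. The rises were led by Fgl1, a liver-secreted fibrinogen-like protein (2120 ± 334 to 6118 ± 671 counts; log2 fold change 1.54 ± 0.11, adjusted p = 3.7e-08), followed by Itih4, an inter-alpha-trypsin inhibitor chain (0.71 ± 0.09, adjusted p = 1.3e-05), and C3, the central complement protein (0.53 ± 0.07, adjusted p = 3.7e-05). Ceruloplasmin (Cp), the copper carrier of plasma, rose by 0.49 ± 0.07. The falls were led by Orm3 (-3.01 ± 0.38, adjusted p = 2.2e-05, at 24.2 and 2.76 counts), Steap4, a metalloreductase (-0.55 ± 0.16), and the protease inhibitor gene Serpina3n (-0.29 ± 0.09). Positive acute phase genes therefore went both ways in the same Cas-5% livers in which Orm1, Saa1 and Saa2 fell. The casein effect exceeded the soy effect for C3 by 0.50 ± 0.10 log2 units (adjusted p = 0.0044) and for Cp by 0.37 ± 0.10 (adjusted p = 0.020). Without Soy-20% + SAA livers 3 to 6, C3 no longer passed (0.32 ± 0.11, adjusted p = 0.12), while Cp did (0.44 ± 0.12, adjusted p = 0.044).

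Soy restriction against Soy-20% + SAA raised 3 of these 23 genes and lowered 3, where 8.51% of all genes tested rose and 8.47% fell. Fgl1 rose by 1.16 ± 0.28 log2 units, Lbp, which binds bacterial lipopolysaccharide, by 0.39 ± 0.07, and Hamp, which encodes the iron hormone hepcidin, by 0.63 ± 0.19. Fgl1 was at 10934 counts in Soy-10% liver 6 and at most 4371 in the other five, and its rise was 0.75 ± 0.16 without that liver (adjusted p = 0.010). Serpina3n fell by 0.65 ± 0.15, the metallothionein gene Mt1 by 0.80 ± 0.23 and Serpina3m by 0.33. Without Soy-10% liver 6, Hamp (0.65, adjusted p = 0.051) and Mt1 (-0.79, adjusted p = 0.052) no longer passed, with log2 fold changes close to those with it. Only Mt1 of the 23 (-0.90 ± 0.19) and 2.54% of all genes passed without Soy-20% + SAA livers 3 to 6, where Serpina3n was at -0.25, Serpina3m at -0.13, Fgl1 at 0.88 ± 0.41, Hamp at 0.63 ± 0.27 and Lbp at 0.31 ± 0.09, and none of the 23 passed against Soy-20%, where 4 of them and 12.3% of all genes had an unadjusted p under 0.05 and DESeq2 called 2 of them and 1.92% of all genes.

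Of 12 negative acute phase genes, whose products fall in inflammation, casein restriction raised 2, albumin (Alb, 0.35 ± 0.09) and Fetub (0.35 ± 0.08), and lowered none, against 11.6% and 13.3% of all genes. Soy restriction against Soy-20% + SAA raised none and lowered 5, against 8.51% and 8.47% of all genes, led by kininogen (Kng1, -0.30 ± 0.07), coagulation factor XII (F12, -0.26 ± 0.07) and fetuin-A (Ahsg, -0.37 ± 0.10; -0.33 without Soy-10% liver 6, adjusted p = 0.061). None of the 12 passed without Soy-20% + SAA livers 3 to 6 (2.54% of all genes did), where Kng1 was at -0.20, F12 at -0.11 and Ahsg at -0.27, or against Soy-20%, where 1 of them and 12.3% of all genes had an unadjusted p under 0.05 and DESeq2 called 0 of them.

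Of 34 cytokine signalling genes tested, casein restriction raised 3 and lowered 4, shares no larger than the 11.6% and 13.3% of all genes. Il6ra, the interleukin 6 receptor, rose from 331 ± 76.4 to 610 ± 77.4 counts (0.90 ± 0.13, adjusted p = 8.3e-05), and Nfkbia, an inhibitor of NF-kappaB, by 0.56 ± 0.08. The interleukin 1 receptor Il1r1 rose by 0.49 ± 0.11. Cebpa, a hepatocyte transcription factor, fell from 2502 ± 168 to 1675 ± 130 counts (-0.56 ± 0.07, adjusted p = 1.5e-05), Junb by 0.92 ± 0.13 and the kinase Ikbkb by 0.28 ± 0.08. Under soy restriction against Soy-20% + SAA 6 rose and 2 fell, against 8.51% and 8.47% of all genes, led by Cebpb (0.92 ± 0.16), Il1r1 (0.82 ± 0.19) and Il1rap (1.3 ± 0.32) among the rises and Ikbkb (-0.40 ± 0.10) and Il6st (-0.24 ± 0.07; -0.21 without Soy-10% liver 6, adjusted p = 0.076) among the falls. Without Soy-20% + SAA livers 3 to 6, only Il1rap of the 34 passed, at a smaller 0.42 ± 0.10 and beside 2.54% of all genes, with Cebpb at 0.57, Il1r1 at 0.53, Ikbkb at -0.20 and Il6st at -0.14. Against Soy-20%, 0 of the 34 passed as higher and 1 as lower, where 0.866% of all genes passed. There 4 of the 34 and 12.3% of all genes had an unadjusted p under 0.05. The casein effect on Cebpa was lower than the soy effect by 0.48 ± 0.10 log2 units (adjusted p = 0.0053), that on Cebpb by 1.14 ± 0.30 (adjusted p = 0.020), and that on Il6ra higher by 0.72 ± 0.20 (adjusted p = 0.024). Without Soy-20% + SAA livers 3 to 6, Cebpa and Il6ra passed (adjusted p = 0.044 and 0.048) and Cebpb did not (-0.80 ± 0.36, adjusted p = 0.27). Transcripts of Il6 itself were not analysed here.

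**Figure D5:**
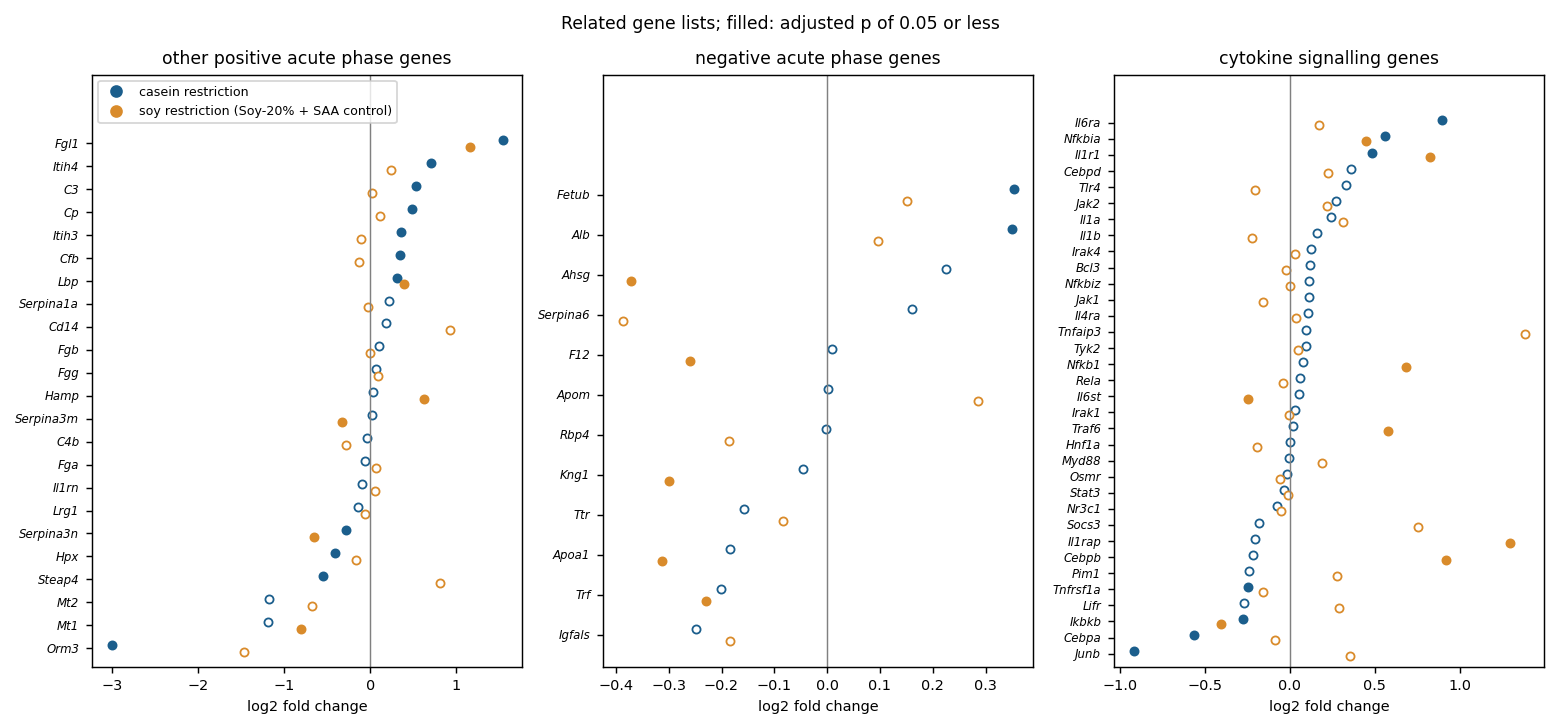
Log2 fold changes of 23 other positive acute phase genes, 12 negative acute phase genes and 34 cytokine signalling genes for casein restriction and for soy restriction against Soy-20% + SAA, with filled points at an adjusted p of 0.05 or less. Fgl1 rose under both restrictions, at 1.54 and 1.16 (0.75 without Soy-10% liver 6), and Orm3 lies farthest to the left under casein restriction, at -3.01.

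Markers of other cells were summed in each liver, since in whole tissue fewer cells of a type and less RNA per cell cannot be told apart. Hepatocyte markers (6 of 6 in the tables, Alb most abundant) summed to 771646 ± 37188 in Cas-20% and 860368 ± 79967 in Cas-5%, but went both ways: Alb was at 467087 ± 23721 and 589764 ± 64430 counts, and Cps1, an enzyme of the urea cycle, at 10645 ± 2125 and 3985 ± 920. Alb, Ttr and Apoa1 of this list are also in that of negative acute phase genes. Kupffer cell markers (6 of 6, Cd5l most abundant) were close, at 2367 ± 428 and 2289 ± 368. Beside the falls of Orm1, Saa1 and Saa2 in Cas-5%, the sums of red blood cell markers (5 of 5, Hbb-bs most abundant, 4 of the 5 lower by the test; 24380 ± 6835 to 16122 ± 3648) and adipocyte markers (2 of 6 in the tables, Fabp4 most abundant, 1 of the 2 lower by the test; 247 ± 54.1 to 151 ± 44.6) were lower too, and their part in the result was not tested. Cholangiocyte markers (6 of 6, Sox9 most abundant) summed to 619 ± 165 and 441 ± 51.6, but neither of the 2 that passed the filter on low counts passed the test, and Spp1 was at 177 ± 45.6 and 184 ± 16.7. The sum of pancreatic acinar markers (4 of 7, 439 ± 138 and 258 ± 59.98) was that of Cela1, as Cpa1, Ctrb1 and Pnlip were at 0 or about 1 count in each casein liver. Cela1 was lower by the test (log2 fold change -0.75), and its part in the result was not tested. Neutrophil markers (3 of 8, S100a8; 66.1 ± 16.5 and 62.0 ± 12.9) and lymphocyte markers (4 of 6, Cd79b; 26.9 ± 6.45 and 35.9 ± 5.24) were at low counts in both diets; Ngp, Camp, Ltf, Elane and Mmp8 of the neutrophil list and Adipoq, Plin1, Lep and Retn of the adipocyte list were not analysed here.

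Soy-10% liver 6, the liver with the highest Saa1, had the highest sum of Kupffer cell markers in its diet, 3966 against 2038 to 2540, and of adipocyte markers, 958 against 263 to 484. Not all markers of these lists were high there. Of the Kupffer cell list, Cd5l was at 1931 against 992 to 1324 counts and Marco at 670 against 62.6 to 127. Timd4 (142 against 53.2 to 83.3), Adgre1 (313 against 123 to 166) and Vsig4 (452 against 343 to 444) were highest there too. Only Clec4f of that list, at 459, lay within the range of the other livers, 451 to 483. Of the adipocyte list, Cfd was at 764 against 126 to 220, and Fabp4, at 195, lay within 114 to 263. Its sum of neutrophil markers, 59.8, lay within the 45.5 to 83.1 of the other five, and that of hepatocyte markers, 790679, within 742523 to 858335. The part of these cells in its acute phase values was not tested. Soy-10% liver 4 carried pancreatic acinar transcripts, with a sum of 4758 against 206 to 370 in the rest of its diet with Ctrb1 at 1622 and Cela1 at 988. Its Saa1 count of 327 lay between those of the other livers, and without it none of the 10 transcripts and 14.3% of all genes passed the test against Soy-20% + SAA.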

How the data were processed

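Raw read counts per gene were deposited by the authors for 30 livers, made from Lexogen QuantSeq 3′ libraries with the kit maker's online pipeline; the aligner and the counting of reads that match several places are not given in the sources used here. In the other deposited table, each count is divided by the size factor of its library, giving a normalized signal; the submitters name DESeq2 1.30 and R 4.0.3 in their processing notes. The build is GRCm38, and neither table is scaled for gene length.

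Groups follow the labels. Genes were kept by filterByExpr, normalized by TMM and tested with edgeR 4.0.16 (quasi-likelihood F test, two-sided, R 4.3.3), each pair of diets on its 12 livers, the difference of effects on 24 and all diets on 30, with Benjamini-Hochberg adjustment over all genes at 0.05. Intervals are 95%, and ± is the SE of a fold change and the SD of a level over 6 livers. Co-variation used log2 CPM (prior count 2) and 100000 permutations within diets (scipy 1.17.1); the smallest p these can give is 1e-05. The fits were tested on simulated data that had the same dispersion for every gene, no GC trend and no outlying liver. That test therefore does not cover the livers that stood apart here. Alternatives were DESeq2 1.42.0, RLE factors, other filters (none, or 10 counts in every liver), a robust prior, a replicate block, a GC covariate, 1 fit of all livers, and leaving out livers. The comparison of the restricted diets, co-variation without single livers, and the spread within diets without livers that stood apart, were added after the data were seen.

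The 10 members and the lists of related genes were chosen with earlier results of these data known. Named beyond the 10 were up to 3 genes of a list with the smallest p over all diets and up to 3 called in each direction under casein or soy restriction, the most abundant gene of each cell type list, and the 5 genes nearest to Saa1, of which 1 is not reported here. Livers of one diet differed beyond counting noise (chi-square per gene of at least 6.12), so none was a duplicate. Livers with equal replicate numbers did not deviate together (mean r of at most 0.097 between any pair of diets). Each liver is a separate mouse.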

Additional observations from a re-analysis of the deposited data

Results flagged for a closer look

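Livers standing apart from the other five of their diet in log2 CPM by Dixon's criterion at 95% were found in 9 of the 50 sets of 6 (10 transcripts in 5 diets), where chance gives about 1 in 20. Of these, 4 were Soy-10% liver 6, at 2404 normalized counts of Saa1 (next highest 404), 6379 of Orm1 (next 3780), 57.9 of Orm2 (next 22.3) and 1873 of Apcs (next 976). The other high livers were Soy-20% liver 2 with 971 counts of Saa1 (next 448) and Cas-20% liver 5 with 1154 of Apcs (next 856). The low livers were Soy-20% + SAA liver 1 with 1343 counts of Saa4 (next 1788), Cas-5% liver 6 with 2930 of Crp (next 3177) and Soy-20% liver 3 with 2887 of Crp (next 3490).

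The effects of casein and soy restriction differed by the test of the difference for Orm1 (-3.04 log2 units) and Saa4 (-0.41).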

How the results depend on the processing

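Under casein restriction, 6 to 8 of the 10 transcripts passed when single livers were left out, among 2601 to 2888 genes, and DESeq2, the GC covariate, other filters and RLE factors left the direction of each of the 10 as it was, although Orm2 and Lcn2 could not be fitted where 10 counts were required in every liver. Replicate numbers did not pair the livers, so the fit with a replicate block is given only here. With it, Saa1 turned to -0.54 against Soy-20% + SAA and to -0.13 against Soy-20%, and Saa2 turned to -0.18 against Soy-20%. Against Soy-20% + SAA, 1 of the 10 (Hp) and 16.8% of all genes passed. Crp lost its call under casein restriction (adjusted p = 0.085). Saa1 and Lcn2 passed across all diets (adjusted p = 0.034 and 0.013), where 42.6% of all genes did. Between Soy-20% + SAA and Cas-20%, 141 genes passed.

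Leaving out single livers gave 4626 to 6074 genes and 4 to 8 of the 10 across all diets. It gave 1219 to 3119 genes and 0 to 3 of the 10 for soy restriction against Soy-20% + SAA, and 50 to 146 genes and 0 to 1 of the 10 against Soy-20%. It gave 0 to 1587 genes for supplementation, 9 to 1817 for protein source, 719 to 1941 genes and 1 to 2 of the 10 for the difference of effects, and 981 to 1317 genes and 2 to 5 of the 10 between the restricted diets. Saa1 ranged from -1.09 to 0.25 against Soy-20% + SAA and from -0.73 to 0.76 against Soy-20%, and Saa2 from -0.70 to 0.49 against Soy-20%. Co-variation with Saa1 ranged from 0.23 to 0.49 for Saa4, 0.24 to 0.43 for Hp, 0.35 to 0.61 for Crp and 0.40 to 0.78 for Saa3, the last value without Soy-10% liver 6.

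The comparisons with Soy-20% + SAA depended most on the setting, and apart from the omission of livers the cause was not tested. With the GC covariate, 3551 genes and 2 of the 10 passed across all diets, 391 for soy restriction against Soy-20% + SAA, 0 for supplementation, 5 for protein source and 560 for the difference of effects. Without Soy-20% + SAA livers 3 to 6 the counts were 3433, 317, 0, 3 and 296, from fewer livers. In 1 fit of all livers, 3077 genes passed for soy restriction against Soy-20% + SAA, 62 against Soy-20%, 1793 for supplementation and 2331 for protein source. DESeq2 called 228 genes and 1 of the 10 (Orm1) against Soy-20%, 885 and 1 of the 10 (Saa2) for supplementation and 1155 for protein source. For supplementation, where 1 gene passed, 2 passed with RLE factors, with no filter and with 10 counts in every liver, and 65 with a robust prior. With 6 livers a diet, wide intervals such as that of Saa1 under soy restriction cannot separate no change from a change of 1 log2 unit.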
